A study of Mus musculus with 183 samples.

Results

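The AVEN protein was first described as a partner of the survival protein BCL-xL and of the apoptosome protein APAF1, and 9 genes of mitochondrial apoptosis were followed here in mouse embryonic stem cells with and without AVEN. They were chosen by name as the BCL2 family, apoptosome and caspase genes around those partners: the survival genes Bcl2, Bcl2l1 and Mcl1, the pore-forming effector Bak1, the BH3-only genes Bcl2l11, Pmaip1 and Bid, and the apoptosome genes Apaf1 and Casp9. All 9 are among the 53380 genes of the count table, and 7 of them are among the 7240 mRNAs of a table of protein binding that leaves out Bcl2 and Casp9.

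The study asked whether the cytoplasmic RNA helicase SKIV2L, a part of the Ski complex that feeds mRNA to the exosome, and its partner AVEN act on mRNA turnover. RNA was sequenced from 47 libraries in 16 groups of 3 libraries each, except for 1 group of 2 (clone 5F, day 0, 120 min). Clone 5F carries Rosa26 CreERT2 with Skiv2l fl/fl and keeps AVEN. Clone 7E is Aven-/-, and its labels give Rosa26 Cre-ERT2/BirA-V6 and Skiv2l 3xFLAG-Avi, while the study's methods describe a Skiv2l fl/fl allele in that line too. Each clone was sampled without 4-hydroxytamoxifen (4OHT, which activates the Cre fused to an oestrogen receptor domain) at day 0 and after 4 days in 0.1 µM 4OHT at day 4. At each day, transcription was stopped with actinomycin D for 120, 240 or 360 min, and the 0 min (mock) cells received the solvent DMSO instead. All cells were grown in serum with LIF. There is 1 clone per genotype, so the clone and the Aven genotype cannot be told apart, and the study's methods describe the replicates as technical, so each p-value below measures the spread between such libraries only.

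Mitochondrial apoptosis is decided by the balance among proteins of the BCL2 family. Survival members such as BCL2, BCL-xL (from Bcl2l1) and MCL1 bind and hold back the effectors BAK and BAX. BH3-only members such as BIM (from Bcl2l11), NOXA (from Pmaip1) and BID occupy the survival proteins or engage the effectors. Once effectors open the outer mitochondrial membrane, released cytochrome c assembles APAF1 into the apoptosome, which activates caspase-9. Pluripotent stem cells are known to stand close to this threshold, and MCL1 and NOXA in particular are short-lived proteins.

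The libraries held 24440935 to 34114250 gene counts. Aven fell to 57, 86 and 58 normalised counts in the mock libraries of clone 7E at day 0, against 1004, 1012 and 998 in clone 5F. Skiv2l gene counts did not follow the labels of clone 5F: they were 4150, 4136 and 4205 at day 0 and 4415, 3825 and 4162 in the libraries labelled day 4 (log2 change -0.01, adjusted p = 0.914, by the quasi-likelihood test of edgeR and the Benjamini-Hochberg method). In clone 7E they were 968, 1038 and 903 at day 0 and 406, 389 and 368 at day 4 (log2 change -1.32, adjusted p = 7.78e-13, same test). The gene count also covers exons outside the floxed stretch, so it does not measure the deletion alone. The summed normalised counts of 8 stem cell markers lay between 81965 and 98677 in every mock library. The sum of 5 primitive endoderm markers was 3328 to 3501 in clone 5F at day 0 but 320 to 353 in clone 7E at day 0. The mock libraries also differed in the share of the mitochondrial rRNA mt-Rnr2 (0.857 to 1.68%). Over all libraries that share ran from 0.214 to 3.07%, with both ends after actinomycin D. In each clone and day it was lowest in replicate 1 at 120 min, replicate 2 at 240 min and replicate 3 at 360 min. The part of marker levels or of this share in the results below was not tested, except where a fit with the share as a covariate is given.

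Levels across the family spanned a wide range in mock cells. They are given as reads per sequencing depth and per length of the joined exons of all annotated transcripts of a gene (RPKM). Mcl1 was highest, with group means of 168 to 219, and Pmaip1 followed with 51.03 to 59.8. Bak1 held 23.7 to 29.7 RPKM and Bid 13.9 to 19.7, while Apaf1 (9.51 to 13.0), Bcl2l1 (9.38 to 12.9) and Bcl2l11 (6.24 to 9.80) were lower. With this length, the ranges of Bid and Bak1 did not overlap, whereas those of Apaf1 and Bcl2l1 did, and that of Bcl2l11 overlapped with both. The authors' median RPKM over their tagged lines gave another order. There Bid (36.3) stood above Bak1 (24.8), and Bcl2l1 (21.0) above Apaf1 (8.64). The part of the length used in the order of genes was not tested. Casp9 was at 2.03 to 2.44 RPKM and Bcl2 at 0.277 to 0.505 RPKM, so that among the survival genes the Mcl1 transcript was far more abundant than Bcl2l1, and Bcl2 was barely present. Reads were counted without strand, and 25.5% of the exon length of Bak1 overlaps Ggnbp1 while 17.7% of that of Bid overlaps Bcl2l13. The levels of Bak1 and Bid thus depend on how reads in the shared stretches were counted or left out, which was not tested.

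**Figure D1:**
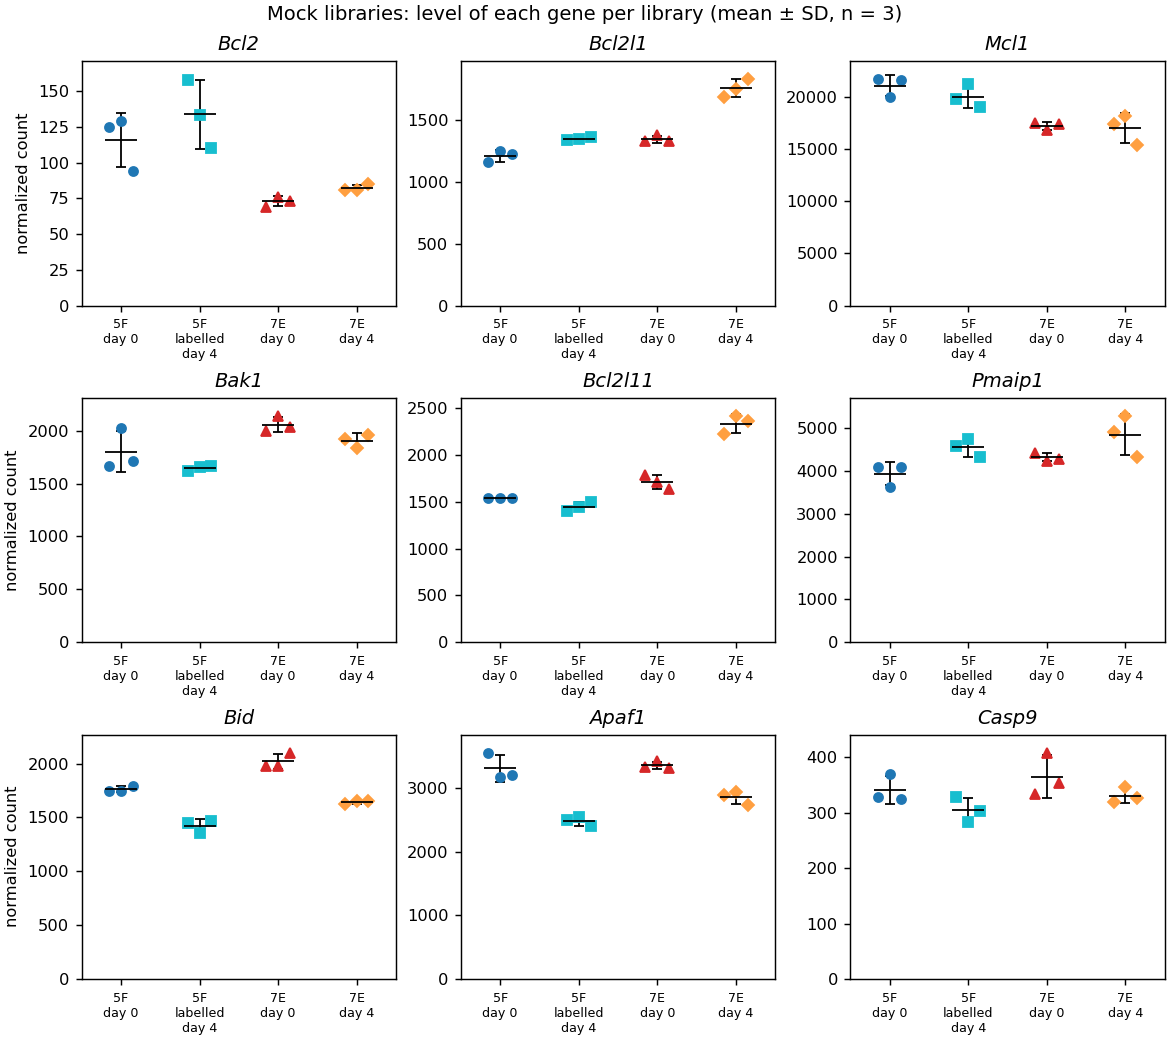
Normalised counts (linear axis from 0, 1 panel per gene with its own scale) in the mock libraries, 1 point per library with the group mean and SD (n = 3), for clones 5F and 7E at day 0 and at day 4 (labelled day 4 in clone 5F). The Bcl2l11 libraries of clone 7E at day 4 (2219 to 2417) lie above all others, and the Apaf1 libraries of the later day lie below those of day 0 in both clones.

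Bcl2l11 and Bcl2l1 rose with 4OHT in the Aven-/- clone. Bcl2l11, which encodes the BH3-only protein BIM, held 1790, 1716 and 1637 normalised counts in the mock libraries of clone 7E at day 0 and 2219, 2417 and 2365 at day 4. Bcl2l1, which encodes the survival protein BCL-xL, went from 1329, 1381 and 1332 to 1691, 1755 and 1834. Neither pair of groups overlapped. The change was 0.44 ± 0.06 (log2 ± SE, adjusted p = 7.15e-07) for Bcl2l11 and 0.39 ± 0.06 (adjusted p = 6.07e-06) for Bcl2l1 by edgeR's quasi-likelihood test, which is an increase of both a death-promoting and a survival transcript. Pmaip1 rose by 0.17 ± 0.06 (adjusted p = 0.0240), from 4421, 4242 and 4284 to 4912, 5284 and 4329 normalised counts, with 1 library of day 4 inside the range of day 0. That call was lost without replicate 1 and without replicate 2. Marker levels moved in the same libraries. Of 8 stem cell markers 7 were called lower at day 4, and their summed normalised counts went from between 95522 and 98677 to between 81965 and 84783. Of 4 primed state markers, 1 was called higher, Krt18 (log2 change 1.55), and 2 lower, Otx2 (-0.64) and Fgf5 (-0.47). T (-0.59) was not called, and the median of the 4 was -0.53. Their summed counts still went from between 3181 and 3306 to between 4810 and 5329, through Krt18. For fibroblast markers, 3 of 4 tested were higher, at sums of 84.7 to 101 and 165 to 213 (Postn was at 0 in every library at day 0). The part of these shifts in the changes of the 9 genes was not tested. In bulk RNA, a change in the mix of cells and a change in RNA per cell cannot be told apart.

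Bid and Apaf1 fell in the same comparison. Bid, which encodes a BH3-only protein that caspase-8 activates by cleavage, dropped from 1979, 1978 and 2101 to 1620, 1648 and 1652 normalised counts (log2 change -0.30 ± 0.05, adjusted p = 8.22e-05). Apaf1, which encodes the scaffold of the apoptosome, dropped from 3341, 3427 and 3313 to 2890, 2944 and 2742 (-0.23 ± 0.05, adjusted p = 0.000538). In both genes every library of day 4 lay below every library of day 0. Casp9 (-0.14, adjusted p = 0.219), Bak1 (-0.11, adjusted p = 0.108), Mcl1 (-0.02, adjusted p = 0.770) and Bcl2 (0.18, adjusted p = 0.387) did not pass. Of the 9 genes, 3 were higher and 2 lower, where 20.7% of 16333 genes tested were higher and 19.4% lower, and the median log2 change was -0.02 over the members and -0.01 over all genes.

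These directions are relative to a scaling that centres on the typical gene. The ratio of gene counts to counts of the added ERCC spike-in RNAs was 312 to 322 in the mock libraries of clone 7E at day 0 and 151 to 156 at day 4. With each library scaled by its own ratio, the median gene stood at -1.11 on the log2 scale, all 9 members were lower at day 4, and Bcl2l11 read -0.65 and Bcl2l1 -0.71. Relative to that median gene, Bcl2l11 was higher by 0.45 and Bcl2l1 by 0.39.

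In clone 5F, which keeps AVEN, Apaf1 showed the largest called change of the 9 genes. It held 3560, 3170 and 3213 normalised counts at day 0 and 2494, 2551 and 2409 in the libraries labelled day 4, with no overlap. The log2 change was -0.42 ± 0.05 (adjusted p = 4.95e-06, edgeR's quasi-likelihood test), and that of Bid was -0.31 ± 0.05 (adjusted p = 0.000196), from 1748, 1747 and 1796 to 1445, 1351 and 1471 normalised counts. Pmaip1 rose from 4088, 3621 and 4093 to 4572, 4754 and 4322 (0.21 ± 0.05, adjusted p = 0.00564) and Bcl2l1 from 1162, 1255 and 1225 to 1339, 1347 and 1367 (0.15 ± 0.05, adjusted p = 0.0435). Of the 9 genes, 2 were higher and 2 lower, beside 12.8% and 11.6% of 16349 genes tested, and the member median was -0.09 against a median of -0.005 over all genes. The call of Bcl2l1 was lost in 7 of 10 alternative settings, and that of Pmaip1 without replicate 2, with each library's own ERCC ratio and with the mt-Rnr2 share as a covariate (adjusted p = 0.0808).

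Bcl2l11 did not pass in clone 5F. It held 1540, 1541 and 1537 normalised counts at day 0 and 1399, 1449 and 1500 in the libraries labelled day 4 (-0.09, adjusted p = 0.241), and every labelled day 4 library lay below those of day 0. In this scaling the clones' changes in Bcl2l11 had opposite signs, though that of clone 5F was not called. The difference between them, clone 7E minus clone 5F, was 0.53 ± 0.07 (log2, adjusted p = 1.57e-05, edgeR's quasi-likelihood test of the interaction over 12 mock libraries). For Bcl2l1 the difference was 0.23 ± 0.07 (adjusted p = 0.0361), a call lost without each replicate in turn and with no filter on low counts. Apaf1 gave 0.18 ± 0.07 (adjusted p = 0.0935), and the other 6 genes gave values from -0.04 to 0.05. Thus 2 of 9 members were called higher and 0 lower, beside 6.65% and 5.29% of 17209 genes. For the 6 genes with values near 0 the 95% intervals ran from -0.15 to 0.19 in Bak1, -0.12 to 0.14 in Bid, -0.10 to 0.20 in Mcl1 and -0.21 to 0.12 in Pmaip1, and were wider in Casp9 (-0.22 to 0.27) and Bcl2 (-0.45 to 0.40). Since the median gene moved to -1.03 with each library's own ERCC ratio, the difference in Bcl2l11 then read -0.50, which is 0.53 above that median. With that scaling Bcl2l11 had the same sign in both clones, at -0.15 in clone 5F and -0.65 in clone 7E.

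**Figure D2:**
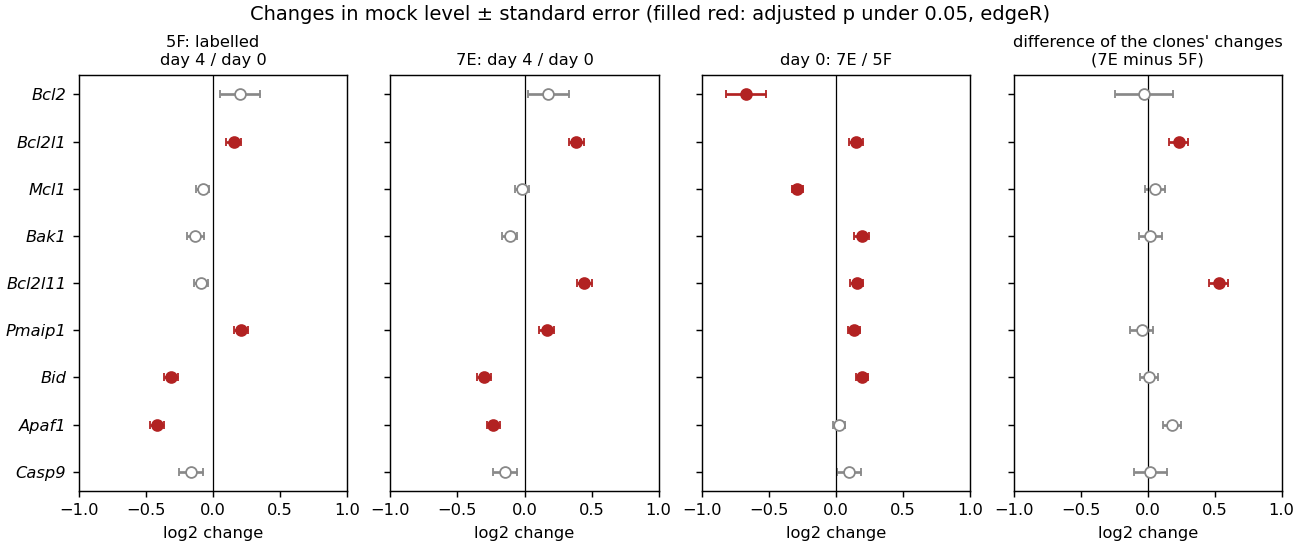
Log2 change in mock level of the 9 genes with its standard error in clone 5F (labelled day 4 against day 0), in clone 7E (day 4 against day 0), between the clones at day 0, and as the difference of the clones' changes, with filled red points for adjusted p under 0.05 by edgeR. Bcl2l11 lies at -0.09 in clone 5F and at 0.44 in clone 7E, while Bid lies at -0.31 and -0.30.

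Before 4OHT the clones already differed in 7 of the 9 genes. They differed in Skiv2l as well, whose log2 level was -2.10 in clone 7E relative to clone 5F (adjusted p = 1.06e-19), so that neither AVEN nor SKIV2L alone can be told apart from the clone here. The 5 primitive endoderm markers were all called lower in clone 7E, and their part was not tested. Bcl2, the founding survival gene, held 69, 76 and 73 normalised counts in clone 7E and 125, 129 and 94 in clone 5F (-0.67 ± 0.15, adjusted p = 0.000859, edgeR's quasi-likelihood test). Mcl1, whose protein is a short-lived guard against BAK, held 17572, 16835 and 17419 against 21733, 20012 and 21627 (-0.29 ± 0.04, adjusted p = 3.64e-06). Both survival genes were lower in each library of the Aven-/- clone than in any of clone 5F. In the other direction, Bid (0.20 ± 0.05, adjusted p = 0.00163), Bak1 (0.19, adjusted p = 0.0122), Bcl2l11 (0.16, adjusted p = 0.0136), Bcl2l1 (0.15, adjusted p = 0.0242) and Pmaip1 (0.13, adjusted p = 0.0241) were called higher. Here Bid was at 1979, 1978 and 2101 against 1748, 1747 and 1796 normalised counts, whereas the ranges of Bak1 overlapped, at 2001, 2140 and 2035 against 1665, 2021 and 1716. Apaf1 (0.02, adjusted p = 0.762) and Casp9 (0.09, adjusted p = 0.420) did not pass.

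The members called higher numbered 5 and those called lower 2, beside 20.0% and 19.7% of 16299 genes, and the member median was 0.13 against -0.01 over all genes. Without replicate 1 the calls numbered 3 and without replicate 3 they numbered 4. Only the calls of Bid, Mcl1 and Bcl2 were kept with the mt-Rnr2 share as a covariate, where Bid read 0.25, Mcl1 -0.26 and Bcl2 -0.70. With each library's own ERCC ratio, which moved the median gene to -0.17, the members called were Mcl1 (-0.45), Bcl2 (-0.84) and Apaf1 (-0.14), while Bcl2l11 and Bcl2l1 both read -0.01, Pmaip1 -0.02 and Bid 0.04.

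Of 29 other listed genes of mitochondrial apoptosis, with Aven among them, 25 passed the filter on low counts. In clone 5F, 0 rose and 8 fell with 4OHT (beside 12.8% and 11.6% of all genes), among them the mitophagy receptor Bnip3 (log2 change -0.79), the survival gene Bcl2l2 (-0.54) and the effector Bok (-0.42), which kept their calls in every alternative. The related receptor Bnip3l (-0.20) lost its call without replicate 1, without replicate 3 and with the mt-Rnr2 covariate, and the BH3-only gene Bad (-0.25) lost it in most alternatives, including DESeq2 and each replicate left out. In clone 7E, 4 rose and 7 fell, beside 20.7% and 19.4% of all genes. The BH3-only gene Hrk rose by 1.19 and the initiator caspase gene Casp8 by 0.65, while the BH3-only gene Bmf (-0.62), Bcl2l2 (-0.59) and Bok (-0.57) fell. Bcl2l2 and Bok thus fell in both clones. With each library's own ERCC ratio, Casp8 read -0.45 in clone 7E and Hrk was no longer called. The list's median was -0.08 in each clone.

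Between the clones at day 0, 4 of the 25 genes were higher and 3 lower, shares that lie near or below the 20.0% and 19.7% of all genes. Those called lower include Aven itself, whose fall follows from the Aven-/- genotype of clone 7E. Aven read -3.90 and Bnip3 -1.35, while Birc3, an inhibitor of apoptosis, read 0.54 and Bmf 0.28 (log2, clone 7E against clone 5F), the last not called with own ERCC ratios or with the mt-Rnr2 covariate. The change with 4OHT differed between the clones in Casp8 (0.41, adjusted p = 0.0385) and in Htra2, a mitochondrial protease gene (-0.35, adjusted p = 0.0145, edgeR's quasi-likelihood test of the interaction). The call of Casp8 was lost without each replicate in turn, with DESeq2, with no filter and with the mt-Rnr2 covariate, and its value read -0.61 with own ERCC ratios. That of Htra2 was lost without replicate 1 and without replicate 2.

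The 3′ UTRs of the 9 transcripts differ in AU-rich motifs, which are known landing sites for proteins that speed mRNA decay. The pentamer ATTTA was counted along with a longer motif around that pentamer, TATTTAT, and with the still longer TTATTTATT, each of which holds the shorter motifs, on the sense strand only and with overlaps, in 1 GENCODE transcript per gene (GRCm38). Mcl1 has 8 copies of ATTTA and 3 of TATTTAT in 2353 nt, and TATTTAT occurs in 45.1% of mouse 3′ UTRs of like length (within 20%). Bcl2l11 has 6 and 2 in 4218 nt (61.7% of like UTRs have TATTTAT), Bcl2 has 15 and 2 in 5086 nt (67.0%), and Pmaip1 has 4 and 4 in 2187 nt (43.1%). Apaf1 has 3 and 1 in 2139 nt (43.1%), Bcl2l1 has 1 and 1 in 1473 nt (33.9%) and Casp9 has 2 and 1 in 2289 nt (44.1%). Bak1 in 1121 nt and Bid in 1427 nt have 0 of either, where 27.1% and 32.5% of UTRs of their length have TATTTAT. The longest motif was found only in Bcl2 and Casp9, where 21.7% and 11.7% of UTRs of like length have it. UTRs of like length hold a median of 4 copies of ATTTA for Mcl1, 7 for Bcl2l11, 9 for Bcl2 and 4 for Pmaip1. That median is 3 for Apaf1, 4 for Casp9 and 2 for Bcl2l1, Bak1 and Bid. The sites of the 2 fastest decaying transcripts, of Bcl2 and of the slower Casp9 and Apaf1 are shown as 25-nt windows with the motif in capitals, since they let the half-lives below be read beside the letters.
Mcl1, chr3:95660884-95660908, plus strand: aaacatgtgTATTTATgaaggtgga
Mcl1, chr3:95662580-95662604, plus strand: gtacctgtgTATTTATccttgatca
Mcl1, chr3:95662605-95662629, plus strand: tagtttgctTATTTATgtttaactc
Bcl2l11, chr2:128161111-128161135, plus strand: tattttgacTATTTATtagattaga
Bcl2l11, chr2:128161345-128161369, plus strand: gatgttgtaTATTTATtttccgctt
Bcl2, chr1:106542997-106543021, minus strand: aaaaagatTTATTTATTtaagacag
Bcl2, chr1:106539918-106539942, minus strand: gcatattcTTATTTATTacatctaa
Casp9, chr4:141814301-141814325, plus strand: tgagaacaTTATTTATTcttcaaca
Apaf1, chr10:90989396-90989420, minus strand: acttttttgTATTTATaatttccat
A match is a description of letters in the window, not a bound site.

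All 9 transcripts had fallen after 120 min of actinomycin D in each of the 4 combinations of clone and day (9 of 9 called lower by edgeR's quasi-likelihood test). Most genes did so: 85.0% of 16405 genes tested were lower in clone 5F at day 0, 85.3% at the labelled day 4, and 87.3% and 86.9% in clone 7E, while 0.0671%, 0.0678%, 0.113% and 0.0309% were higher in the same order. The median loss over the 9 genes was -1.10, -1.07, -1.13 and -0.97 on the log2 scale in those 4 groups, beside -0.80, -0.81, -0.79 and -0.80 over all genes. Bcl2l11 lost most, with log2 changes of -1.92 to -2.26, and Pmaip1 (-0.25 to -0.64) and Bak1 (-0.43 to -0.56) least.

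The Bcl2l11 transcript went from 1540, 1541 and 1537 normalised counts in the mock libraries of clone 5F at day 0 to 335 and 341 at 120 min. Over the 4 groups, 20.9 to 26.4% of its mock level was left at 120 min, 10.8 to 13.6% at 240 min and 8.06 to 10.8% at 360 min. Most of its loss thus fell within the first 120 min. Mcl1 had 35.5 to 39.4%, 20.3 to 25.0% and 11.5 to 12.9% left at the same times, a more even decline. Bid, whose 3′ UTR holds 0 copies of ATTTA, had 37.4 to 39.8% left at 120 min and 20.0 to 24.4% at 360 min. Bcl2l1, with 45.9 to 55.3% at 120 min, ended in the same range (19.7 to 22.5%). The part of AU-rich motifs in these courses was not tested.

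Pmaip1 followed another course. At 120 min 84.0, 80.1 and 82.8% of the mock level was left in the first 3 groups and 64.2% in clone 7E at day 4 (lowest library 58.6%, highest 71.3%), before 28.0 to 32.6% was left at 360 min. In clone 7E at day 4 the counts at 120 min were 3451, 3035 and 2838, against 3584, 3446 and 3694 at day 0. The early loss of Pmaip1 was no longer called in clone 5F at day 0 with each library's own ERCC ratio (adjusted p = 0.117) nor at the labelled day 4 without replicate 2 (adjusted p = 0.0673). Bak1, the effector, was among the slowest, with 68.0 to 74.1% left at 120 min and 42.8 to 51.7% at 360 min, and its early loss in clone 7E at day 4 was not called with own ERCC ratios (adjusted p = 0.108). Casp9 ended at 40.5 to 48.3%.

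**Figure D3:**
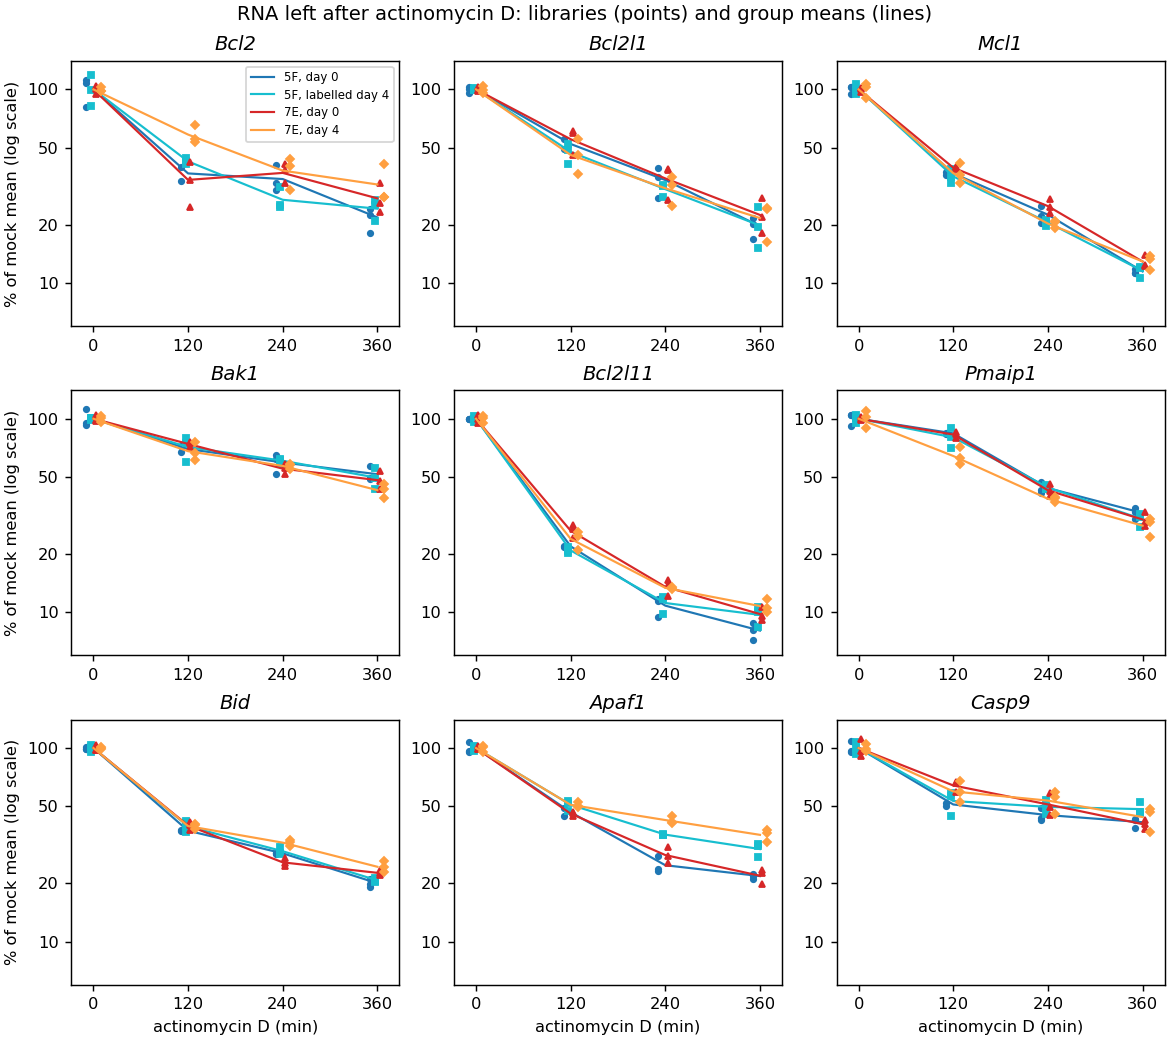
Percent of the mock level left (log axis) against minutes of actinomycin D for the 9 genes, 1 point per library and a line through the group means, by clone and day. At 360 min Bcl2l11 lies at 8.06 to 10.8% and Bak1 at 42.8 to 51.7%, and at 240 and 360 min the Apaf1 lines of the later day lie above those of day 0.

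A straight line through the natural log of the normalised counts over all times gave half-lives that placed the BIM transcript first. For Bcl2l11 the half-life was 99.2 ± 10.5 min (± SE of the slope) in clone 5F at day 0, 109 ± 14.9 min at the labelled day 4, 109 ± 10.6 min in clone 7E at day 0 and 115 ± 14.0 min at day 4. Only 4.76 to 5.61% of 18623 genes had a faster decay. Mcl1 followed with 118 to 126 min, and the SEs of the Bcl2l11 and Mcl1 half-lives overlapped at the later day in both clones but not at day 0. Bcl2l1 (156 to 167 min) and Bid (160 to 188 min) came next and were not separated beyond their errors. Apaf1 lay among them at day 0 (159 min in clone 5F and 165 min in clone 7E) but not at the later day (210 and 254 min). Pmaip1 (192 to 210 min) and Bcl2 (179 to 224 min) also lay within error of each other. Casp9 (285 to 372 min) and Bak1 (306 to 384 min) were the slowest, and the median gene had 280 to 286 min. The member median was 160, 180, 170 and 192 min in the 4 groups.

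The lines were not straight for most members. From mock to 120 min alone, the half-life of Bcl2l11 was 53.2 to 62.5 min over the groups, and from 120 to 360 min it was 169 to 217 min. For Mcl1 the same windows gave 80.3 to 89.4 min and 141 to 159 min, and for Bid 84.7 to 90.3 min and 260 to 344 min. Pmaip1 went the other way, with 188 to 482 min in the first window and 164 to 201 min in the second. The rank of Bcl2l11 as the fastest member held in the first window and over all times, but from 120 to 360 min Mcl1 decayed faster.

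**Figure D4:**
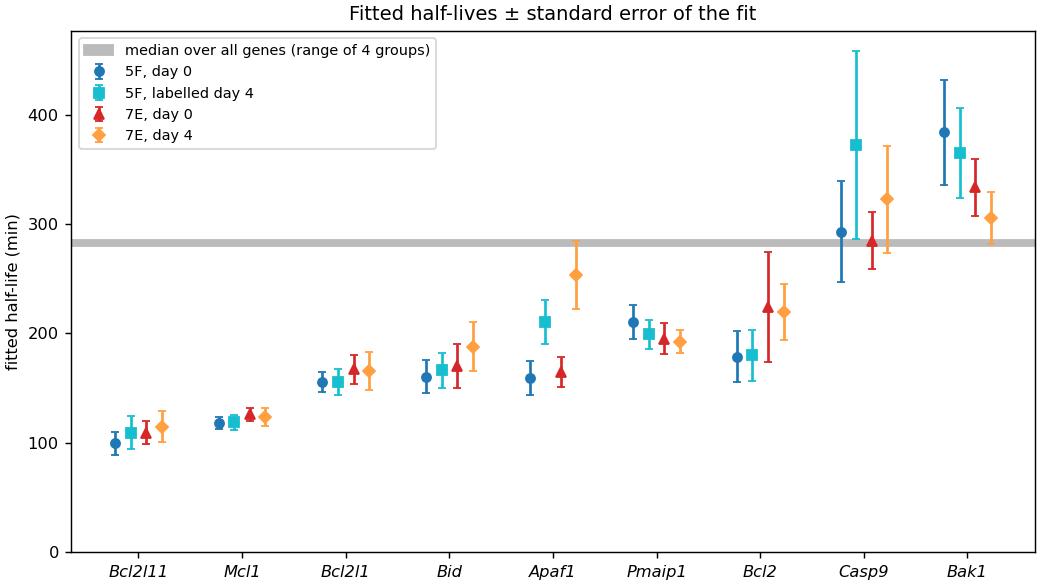
Fitted half-life in min (linear axis from 0) of the 9 genes with its standard error, by clone and day, with a grey band for the range of the all-gene median over the groups (280 to 286 min). Bcl2l11 and Mcl1 lie lowest and Casp9 and Bak1 highest, while Apaf1 moves from 165 to 254 min in clone 7E.

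Decay at the later day was compared with day 0 as a difference in slope, in which 0 of 9 members passed in either clone. In clone 5F the comparison is of 4OHT and not of a measured fall in Skiv2l, since its gene counts did not fall there. In clone 5F 0.134% of 17901 genes tested had a slower and 0.0614% a faster decay at the labelled day 4 (676 genes at an unadjusted p under 0.05), and in clone 7E 0.408% of 17417 had a slower and 0.488% a faster decay (1511 genes). DESeq2 also called 0 members in each. In simulated counts with the same libraries, 15% of slope changes of 0.1 log2 per hour were recovered in clone 5F and 21% in clone 7E, against 83% and 76% of those of 0.25, so small changes could be missed. The widest 95% interval of a member was -0.11 to 0.21 log2 per hour, for Bcl2l11 in clone 5F. For Mcl1 the intervals were -0.06 to 0.07 and -0.08 to 0.06 log2 per hour in clones 5F and 7E.

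Apaf1 had the largest difference in slope of the 9 genes in both clones, and whether it was called depended on how the time course was fitted. At 240 min 24.8% of its mock level was left in clone 5F at day 0 (libraries from 23.2 to 27.6%) and 35.7% at the labelled day 4 (35.4 to 36.1%), and in clone 7E 28.0% at day 0 (25.5 to 30.8%) and 42.5% at day 4 (41.2 to 44.8%). At 360 min 21.8% and 30.1% were left in clone 5F and 21.9% and 35.6% in clone 7E, and the libraries of the days did not overlap at either time. In counts, the libraries of clone 5F overlapped at 360 min (699, 726 and 745 against 773, 680 and 790), since the mock level was lower at the later day, whereas those of clone 7E did not (664, 761 and 784 against 1043, 936 and 1077). The half-life was 159 ± 15.5 and 210 ± 20.1 min in clone 5F and 165 ± 13.3 and 254 ± 31.0 min in clone 7E. The slope differed by 0.09 ± 0.04 log2 per hour in clone 5F (unadjusted p = 0.0357, adjusted p = 1) and by 0.13 ± 0.04 in clone 7E (unadjusted p = 0.00238, adjusted p = 0.138, edgeR's quasi-likelihood test). A straight line leaves the bend shared by both days in the residual. In a fit with 1 term per time point, added after seeing the data, the estimates were the same to 2 decimals with smaller errors, at 0.09 ± 0.02 log2 per hour in clone 5F (adjusted p = 0.0105) and 0.13 ± 0.02 in clone 7E (adjusted p = 1.47e-05). In clone 7E the adjusted p over all alternatives ran from that value to 0.649, without replicate 1. The difference between the clones was 0.04 log2 per hour (95% interval -0.07 to 0.15) and was not called in any alternative.

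Libraries of 1 replicate number and time point resembled each other across clones and days after actinomycin D. The correlation of their deviations from the group means had a median of 0.46 at 120 min, 0.29 at 240 min and 0.33 at 360 min, against -0.07 in mock cells, and was over 0.1 in 7 of 9, 15 of 18 and 13 of 18 pairs. With 1 term per time point and replicate number, also added after seeing the data, 1 of 9 members had a slower decay at the later day in each clone and 0 a faster one. It was Apaf1 in both (adjusted p = 0.0247 in clone 5F and 7.50e-05 in clone 7E, edgeR's quasi-likelihood test), beside 0.408% slower and 0.251% faster of 17901 genes in clone 5F and 2.51% slower and 2.18% faster of 17417 genes in clone 7E.

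No member differed in decay between the clones at day 0 in the straight-line fit (0 of 9 called, beside 0.0281% of 17766 genes slower and 0.00563% faster in clone 7E, with 813 genes at an unadjusted p under 0.05). With 1 term per time point and replicate number, Mcl1 (0.03 log2 per hour, adjusted p = 0.00423) and Bcl2l11 (0.05, adjusted p = 0.0159) were called slower in clone 7E, 2 of 9 members and 0 faster, beside 6.34% and 3.54% of all genes. Neither was called with 1 term per time point alone. The test of clone by day called 0 of 9 members and 0% of 18623 genes (477 at an unadjusted p under 0.05), while DESeq2 called 37 genes in the first of these tests and 4 in the second. Of the 25 other apoptosis genes, Hrk decayed faster at day 4 in clone 7E (-0.30 log2 per hour, adjusted p = 0.000746, edgeR's quasi-likelihood test), a call lost without replicate 1, without replicate 2 and without mock libraries. The remaining Aven RNA of clone 7E decayed faster than the Aven transcript of clone 5F at day 0 (-0.32, adjusted p = 0.0103), a call that rests on 8 to 86 normalised counts per library of clone 7E and was lost without each replicate in turn.

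Across the 16 group means, the genes with log2 levels most like those of each member reached Pearson correlations of 0.98 to 1.00. They were sought among 10592 other genes with a mean of at least 100 raw counts. The most alike were Btg1, B4galt3 and Scyl2 for Bcl2l11, Spryd4, Cnot6 and Zdhhc13 for Mcl1, Ppp4r3a, Csnk1a1 and Ercc6 for Bcl2l1, and Gfer, Aldh4a1 and Tmem43 for Apaf1. Mki67, Aptx and Larp7 were closest to Pmaip1, Bap1, Ip6k1 and Thap4 to Bid, Me2, Dock9 and Ssrp1 to Bak1, and Desi1, Ppp4r1l-ps and Smagp to Casp9. The points share the time course of actinomycin D and the scaling, so these values describe likeness of decay more than of 4OHT response, and Bcl2 fell below the count minimum.

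Binding to 7 of the 9 mRNAs was given by the authors as pooled values of CRAC, in which RNA crosslinked to a tagged protein is purified and sequenced. Each value is the scaled count of 1 protein on an mRNA over the sum of MTR4 (a nuclear exosome helicase), SKIV2L and XRN1 (the cytoplasmic 5′ to 3′ exonuclease), so those 3 add to 1 on each mRNA, and AVEN is set against the same sum. There is no replicate error, and a high ratio for one of the 3 lowers the others.

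Apaf1 and Bak1 had the highest AVEN ratios, at 0.446 (percentile 81.2 of 7240 mRNAs) and 0.417 (percentile 77.1), and Bcl2l11 the lowest, at 0.0814 (percentile 4.05). Bcl2l1 (0.304, percentile 52.1) and Pmaip1 (0.295, percentile 50.0) lay at the middle, and Mcl1 (0.249, percentile 36.6) and Bid (0.163, percentile 15.7) below it. Of the partners' mRNAs, Apaf1 was thus in the upper part and Bcl2l1 near the table's median of 0.295. Only 3 of 7 members lay above that median.

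SKIV2L ratios exceeded the median of 0.267 in 2 of 7 members, Bid (0.335, percentile 65.1) and Apaf1 (0.280, percentile 53.3), while Bcl2l11 (0.141) was lowest. For XRN1, 5 of 7 members exceeded the median of 0.337. Bak1, at 0.691 (percentile 98.0), and Bcl2l1, at 0.579 (percentile 91.7), had the highest XRN1 shares, and Bcl2l11 the lowest at 0.232 (percentile 24.4). Bcl2l11 instead had an MTR4 ratio of 0.628 (percentile 90.8), and Bak1 one of 0.134 (percentile 5.08), so these mRNAs stood at opposite ends. The authors also normalised these ratios to RNA levels of their tagged lines, as a check on differences in transcript level between the lines. Abundance itself was not divided out, since the XRN1 value of Mcl1 stayed at 0.451. With that normalisation, the MTR4 value of Bcl2l11 was at percentile 68.5. Before it, Bak1, the slowest or next slowest member to decay, had the highest XRN1 share and the fastest, Bcl2l11, the lowest. After it, Bak1 stayed highest for XRN1 (0.612), but Apaf1 (0.267) lay below Bcl2l11 (0.280). These values describe 7 mRNAs without a test.

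**Figure D5:**
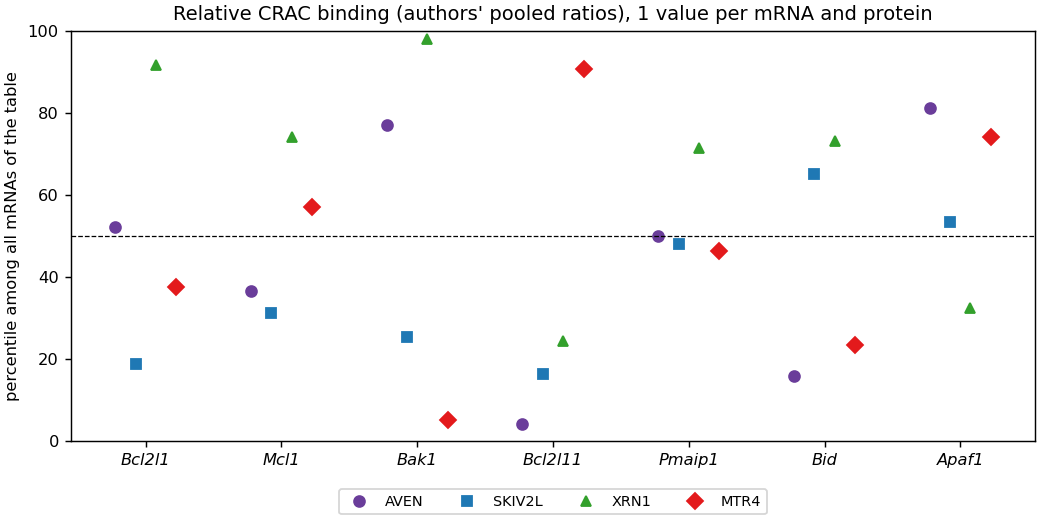
Percentile of each of 7 mRNAs among the 7240 mRNAs of the table for the authors' pooled CRAC ratios of AVEN, SKIV2L, XRN1 and MTR4, 1 point per protein with no replicates, and a dashed line at the table's median. Bcl2l11 lies at percentile 4.05 for AVEN and 90.8 for MTR4, and Bak1 at 98.0 for XRN1 and 5.08 for MTR4.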

How the data were processed

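Raw counts per gene and per ERCC sequence were deposited by the authors, who depleted rRNA, mapped the reads with STAR to mm10 with GENCODE annotation and counted uniquely mapped reads without strand. The second deposited table holds the authors' CRAC ratios per mRNA from pooled replicates, scores (those ratios divided by RNA level), the RPKM values of the authors' tagged lines, and deposited positions and lengths in nt. The authors' own half-lives were not used, and no per-sample column was left out (0 unused). Symbols matched 53274 of 53380 gene IDs.

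Counts were fitted with edgeR 4.0.16 (quasi-likelihood test, filterByExpr, all genes, Benjamini-Hochberg, threshold 0.05) in R 4.3.3. Size factors were DESeq2's median ratios within a time point, times 1 spike-in factor per time point from 34 ERCC sequences with a mean above 50. That factor corrects time points, not libraries or days within them. Half-lives came from linear fits of the natural log of normalised count + 1 (pseudocount 1). RPKM levels of members used the total gene counts and the exon lengths of a later GENCODE annotation of the same build (GRCm38), which also gave the 3′ UTRs. Intervals at 95% are the estimate ± 1.96 SE. Each fit was tested on simulated counts in which 200 genes had been changed: mock changes of 0.5 were recovered in 85%, 83%, 87% and 71% in clone 5F, clone 7E, clones at day 0 and clone by day. For mock changes of 0.25 the shares were 49%, 40%, 54% and 13% in the same order, so small changes in level could be missed.

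Alternatives were DESeq2 1.42.0, edgeR's TMM scaling, no filter, each library's own ERCC ratio, all 12 mock libraries in 1 fit, a replicate block, leaving out each replicate, leaving out the mock libraries, the first window alone and pseudocount 0.5. The mt-Rnr2 share as a covariate, the time point as a factor and a replicate block within each time point were alternatives added after seeing the data. Genes named in the text were the 9 members, up to 6 listed apoptosis genes past the threshold per comparison by size of change, and the 3 genes most like each member. Some listed genes that met this rule are not reported here by name, but the counts over the list include them. The members and gene lists were chosen with earlier results of these data known. Grouping followed the sample titles. Labels and study methods give different units for the actinomycin D dose, so none is printed.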

Additional observations from a re-analysis of the deposited data

Results flagged for a closer look

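The change with 4OHT in mock cells differed between clones 7E and 5F, by the interaction test of edgeR, in 2 of the 9 members and 2 of the 25 other apoptosis genes tested (3 higher and 1 lower), beside 6.65% of all genes higher and 5.29% lower. The difference (log2, clone 7E minus clone 5F) was 0.53 for Bcl2l11, 0.23 for Bcl2l1, 0.41 for Casp8 and -0.35 for Htra2. The calls of Bcl2l1 and Casp8 were lost without each replicate in turn. The libraries labelled day 4 of clone 5F did not show lower Skiv2l gene counts, and the part of that in these differences was not tested.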

How the results depend on the processing

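Of the alternatives for members called in the main comparisons, 422 kept the direction and 8 turned it, all of these with each library's own ERCC ratio, and 34 lost the call. More than 1 of every 2 of these alternatives belong to the early losses, where most genes fell and a turn was hardly possible. All turns and most lost calls were in the mock levels, so the pooled counts overstate how stable the calls in mock level were. For members not called, 507 kept the direction, 62 turned it under one setting or another, and 14 gained a call in the same direction. Scaling by each library's own ERCC ratio moved members called from 4 to 2 in clone 5F, 5 to 9 in clone 7E, 7 to 3 between clones at day 0 and 2 to 9 for clone by day. Genes called moved from 6551 to 14976 in clone 7E and 2055 to 14373 for clone by day. With it, clone 7E read Bcl2 -0.92, Bcl2l1 -0.71, Bcl2l11 -0.65, Pmaip1 -0.93, Bbc3 -0.57 and Casp8 -0.45. Between clones at day 0, Bcl2l1 read -0.011, Bcl2l11 -0.0060, Pmaip1 -0.024 and Apaf1 -0.14. For clone by day, Bcl2l1 read -0.80, Mcl1 -0.98, Bak1 -1.01, Bcl2l11 -0.50, Bid -1.02, Apaf1 -0.85, Casp9 -1.005 and Casp8 -0.61.

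With the mt-Rnr2 covariate, chosen after seeing the data, members called were 2 in clone 5F and 3 between clones, and genes called fell from 3998 to 1094 and from 6477 to 3995. With no low-count filter 1 member was called for clone by day. Leaving out 1 replicate number gave 1862 to 4399 genes in clone 5F, 4320 to 5949 in clone 7E and 753 to 1446 for clone by day (lowest without replicate 1 in each), and 3 to 6 members between clones and 1 for clone by day.

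For decay in clone 5F, 35 genes called became 19 with own ERCC ratios, 14 without mock libraries, 68 with the covariate and 2 to 4 without a replicate. In clone 7E, 156 became 270 with DESeq2, 237 without mock libraries, 263 with the covariate and 26 to 51 without a replicate, and 1 member, Apaf1, was called with own ERCC ratios and without mock libraries. With the time point as a factor, genes called were 161 in clone 5F, 997 in clone 7E, 414 between clones and 4 for clone by day, and 1 member in each of clones 5F and 7E. Between clones, 6 became 37 with DESeq2, 2 with own ERCC ratios, 3 with no filter, 23 without mock libraries, 16 with the covariate and 0 without any replicate. For clone by day, 0 became 4, 1, 5 and 8 with DESeq2, own ERCC ratios, no mock libraries and the covariate. The median half-life of members was 231, 260, 225 and 283 min without mock libraries and 109, 111, 107 and 123 min from mock and 120 min alone (clone 5F day 0, labelled day 4, clone 7E day 0, day 4). The cause was not tested in any of these.

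The replicate numbers do not pair libraries across time points: deviations from group means of same-numbered libraries had a median correlation of -0.04 over 315 pairs, 40% of them over 0.1. Within a time point after actinomycin D most pairs, though not all, exceeded 0.1. The replicate block within each time point called 118, 816, 1756 and 8 genes and 1, 1, 2 and 0 members in decay (clone 5F, clone 7E, between clones, clone by day). It also absorbs the bend of the time course, as the time point as a factor does. With the replicate number alone as a block, members called were 3 in clone 5F, where the call of Bcl2l1 was lost, 5 in clone 7E, 7 between clones, 2 for clone by day, 0 for decay and 9 for each early loss.

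Depth limits Bcl2 most, with under 160 normalised counts in each library. Small changes in decay could be missed, since 9% of simulated clone by day differences of 0.1 log2 per hour were recovered. CRAC values carry no replicate error.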
